A study of Mus musculus with 6 samples.

Results

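The genes described here are 10 chaperones that serve the contractile apparatus of muscle, followed in the quadriceps of P10 mouse pups. They were chosen by symbol: Unc45b, Smyd1, Hsp90aa1, Bag3, Cryab, Hspb1, Hspb2, Hspb6, Hspb7 and Hspb8, and all 10 were found among the 54532 genes of the count table. RNA was sequenced from 3 control pups' libraries and 3 Myf5Cre-Pcyt2 libraries, all taken at 10 days of age from animals on chow. Controls were Pcyt2 flox/flox. The Myf5Cre-Pcyt2 pups carried the same floxed alleles with Cre expressed from Myf5, a gene active in myogenic precursors, a design to delete Pcyt2 in muscle. No label says that the controls carried Cre, and Pcyt2 deletion and the presence of Cre cannot be told apart. Litters are not named, and the p-values reflect only the spread among these 6 libraries.

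Muscle chaperones fold, place and repair the proteins of the sarcomere. UNC45B works with HSP90 to fold the myosin motor domain, and SMYD1 is a muscle methyltransferase that joins them in building thick filaments. Small heat shock proteins hold unfolding proteins without using ATP and bind desmin, filamin, titin and actin under mechanical load, while BAG3 with HSPB8 hands damaged filamin to autophagy.

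The libraries held 17775898 to 20446920 counts, with 20921 to 23122 genes detected in each. Of the genes in the table, 14715 had enough counts to be tested with edgeR's quasi-likelihood test, and 2739 of them passed a Benjamini-Hochberg adjusted p of 0.05, 1328 higher and 1411 lower. With library size alone as the scaling the split was 3225 higher and 499 lower. Pcyt2 itself had 353, 277 and 277 counts in control 1 to 3 against 280, 328 and 272 in Myf5Cre-Pcyt2 1 to 3, a log2 fold change of -0.28 (SE 0.11, edgeR adjusted p = 0.0944). Which exons were removed is not stated in these sources, and whole-gene counts do not measure the intact transcript. Levels are given as CPM, counts relative to the library total after TMM scaling. A negative log2 fold change means a lower level in Myf5Cre-Pcyt2, and SE is the standard error from the fit.

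All 10 chaperones were tested. Smyd1, Hspb2, Hspb6 and Hspb8 fell in Myf5Cre-Pcyt2 muscle, to between 0.640-fold and 0.768-fold of the control level. The other 6 (Unc45b, Hsp90aa1, Bag3, Cryab, Hspb1 and Hspb7) did not pass the test. The 4 that fell compare with 18.6% of all tested genes called in either direction, 9.59% called lower and 9.02% called higher. No member rose by edgeR, with 0 at an unadjusted p under 0.05 and 0 by DESeq2 and by limma-voom. The same 4 genes were the members whose libraries did not overlap between groups, all lower in Myf5Cre-Pcyt2, against 19.2% of tested genes separated in that direction and 19.9% separated in the other. The median log2 fold change of the 10 was -0.24, beside -0.002 over all tested genes. In bulk muscle, fewer cells of a type and less RNA per cell cannot be told apart.

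**Figure D1:**
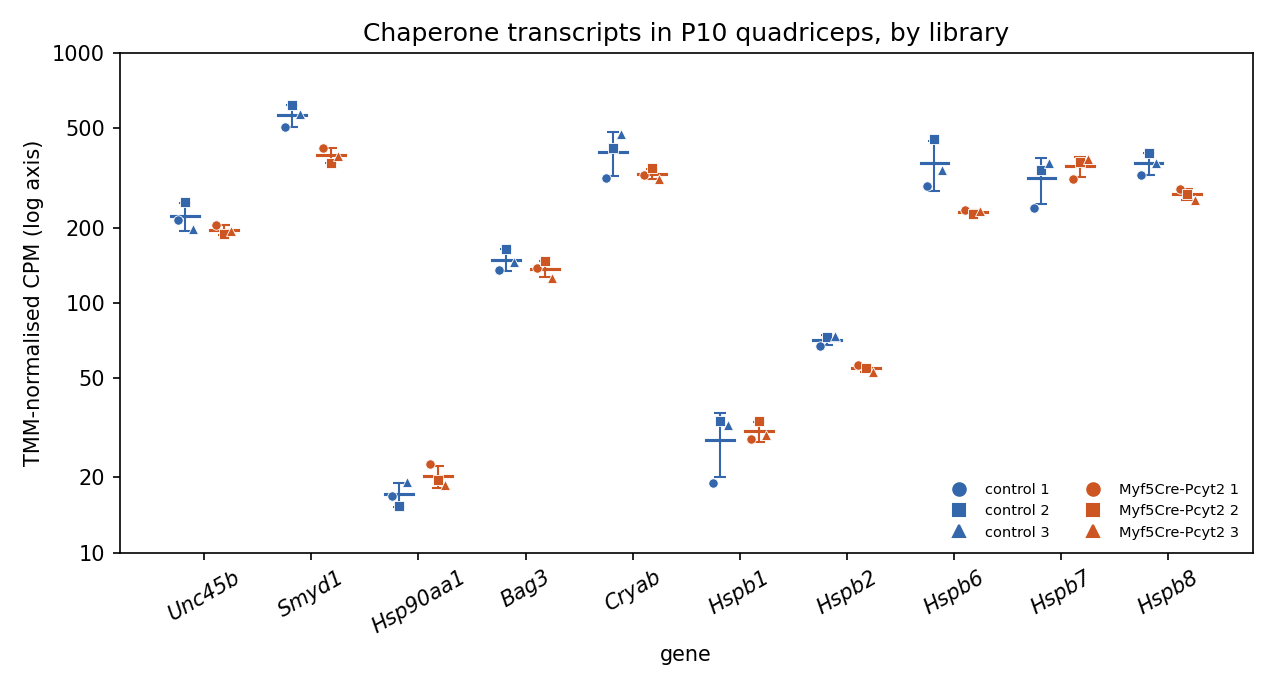
TMM-normalised CPM (log axis) of each of the 10 chaperone genes in the 3 control libraries (blue) and the 3 Myf5Cre-Pcyt2 libraries (orange); symbols mark the replicate number, horizontal lines the group mean and error bars the SD (n = 3). The orange points lie below every blue point for Smyd1, Hspb2, Hspb6 and Hspb8, and the groups overlap for the other 6.

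Promoters of members that fell and of members that did not pass were set side by side. The RefSeq table of GRCm38.p6 holds 8 start sites of 7 members, each with 250 bases before and 50 after the start; Hsp90aa1, Cryab and Hspb2 were not matched in it. Both strands were searched for the paired units of the heat shock element, GAANNTTC and TTCNNGAA, for TATAAA, for CANNTG (the E-box) and for the MEF2 site and CArG box by name. GAANNTTC and TTCNNGAA each read the same on the other strand, as does CANNTG. The stretches that hold a match in the falling genes Hspb6 and Hspb8 and in Hspb1 and Bag3, which did not pass, are shown with the element in capitals. That of Smyd1, with the largest fall among the myosin-folding genes, is shown with its TATAAA match, read on the other strand, in capitals.
Hspb6, chr7:30553051-30553297, plus strand: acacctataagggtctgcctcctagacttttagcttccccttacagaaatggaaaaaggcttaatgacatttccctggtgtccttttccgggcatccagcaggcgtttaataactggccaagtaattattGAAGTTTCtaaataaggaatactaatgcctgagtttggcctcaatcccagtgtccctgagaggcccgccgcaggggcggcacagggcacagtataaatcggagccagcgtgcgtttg
Hspb8, chr5:116422835-116423084, minus strand: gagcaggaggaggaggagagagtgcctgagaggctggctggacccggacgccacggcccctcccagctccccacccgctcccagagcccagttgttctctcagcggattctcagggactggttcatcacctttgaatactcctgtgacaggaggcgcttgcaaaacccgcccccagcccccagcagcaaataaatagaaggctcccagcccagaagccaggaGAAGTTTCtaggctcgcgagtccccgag
Hspb1, chr5:135887669-135887918, plus strand: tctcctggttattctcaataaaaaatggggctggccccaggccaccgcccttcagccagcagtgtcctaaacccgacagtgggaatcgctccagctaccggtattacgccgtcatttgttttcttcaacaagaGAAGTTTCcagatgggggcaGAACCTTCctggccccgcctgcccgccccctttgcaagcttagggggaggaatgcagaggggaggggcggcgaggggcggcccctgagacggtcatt
Bag3, chr7:128523603-128523632, plus strand: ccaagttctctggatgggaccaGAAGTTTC
Smyd1, chr6:71262282-71262531, minus strand: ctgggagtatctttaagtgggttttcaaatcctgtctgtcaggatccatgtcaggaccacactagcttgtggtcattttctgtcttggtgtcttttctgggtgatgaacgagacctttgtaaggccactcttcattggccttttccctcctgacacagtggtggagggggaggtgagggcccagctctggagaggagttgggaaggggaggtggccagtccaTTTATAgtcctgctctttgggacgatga

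The element GAANNTTC occurred near a start of 4 of the 7 matched members. The share was 9.04% of the 27025 genes in the table, 7.01% of those tested here, and 14 of 71 wider chaperone genes. Counting from the start site, its first base stood at -120 in Hspb6 (at 1 of its 2 starts), 3 in Hspb8, 43 in Bag3, and -117 and -97 in Hspb1. The 4 genes with the element comprised Hspb6 and Hspb8, which fell, and Hspb1 and Bag3, which did not pass. TTCNNGAA occurred in 0 of the 7 (9.60% of all genes), the MEF2 site in 0 (3.70%) and the CArG box in 0 (1.81%). CANNTG occurred in 4 (75.0% of all genes) and TATAAA in Hspb6 and Smyd1 (15.7%), at -29 and -28. A match describes letters in a short window and is not a site. The Hspb6 and Smyd1 stretches lie within the GENCODE bounds of those genes, since each has an annotated transcript that begins further upstream.

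Smyd1 (ENSMUSG00000055027; GRCm38 chromosome 6, 71213940 to 71322233, minus strand), with its promoter printed above, showed the second largest decrease of the set. Its level was 505, 618 and 572 CPM in control 1 to 3 against 417, 363 and 388 CPM in Myf5Cre-Pcyt2 1 to 3. Every Myf5Cre-Pcyt2 library lay below every control library. The means were 565 ± 57.0 and 389 ± 27.0 CPM (SD, n = 3 per group), a log2 fold change of -0.54 (SE 0.11, edgeR adjusted p = 0.00974) or 0.689-fold (95% interval 0.584 to 0.814). The call held in 12 of 13 alternative analyses and missed the threshold without Myf5Cre-Pcyt2 replicate 2 (-0.49, adjusted p = 0.0519). None of Smyd1's 50-base words occurred in the transcripts of another gene.

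Unc45b (ENSMUSG00000018845; chromosome 11, 82910550 to 82943403, plus strand), the myosin chaperone itself, did not pass. It had 214, 254 and 198 CPM in control compared with 205, 189 and 193 CPM in Myf5Cre-Pcyt2. Control 3 lay between Myf5Cre-Pcyt2 1 and 3, so the groups overlapped. Its log2 fold change was -0.18 (SE 0.11, 95% interval -0.42 to 0.05, edgeR adjusted p = 0.249). An antisense gene, Unc45bos, shares 255 exonic bases with it but had only 131 counts over all 6 libraries.

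Because SMYD1 and UNC45B act on the same client, their counts were also divided within each library, which removes the scaling between libraries. There were 2.36, 2.43 and 2.89 Smyd1 counts per Unc45b count in control 1 to 3 against 2.03, 1.92 and 2.01 in Myf5Cre-Pcyt2 1 to 3. All 3 Myf5Cre-Pcyt2 ratios were under all 3 control ratios (exact two-sided permutation p = 0.1, the smallest that 3 against 3 libraries allow, and 0.14 adjusted over the 7 ratios computed). Smyd1 was already called lower in these same libraries, so the separation is tied to that call and is not separate support. The share of all gene pairs that separate in this way was not computed. The ratio of Smyd1 to Smyd2, a ubiquitous relative that methylates HSP90, moved further, from 7.47 ± 0.976 to 3.96 ± 0.350 (SD, n = 3 per group; exact permutation p = 0.1, adjusted 0.14). Smyd2 itself rose, with 75.8 ± 2.85 CPM in control compared with 98.4 ± 3.33 CPM in Myf5Cre-Pcyt2 (0.38 on the log2 scale, SE 0.08, edgeR adjusted p = 0.0112). The Smyd2 call was lost without Myf5Cre-Pcyt2 replicate 2 (adjusted p = 0.0558).

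Set against 6 myosin heavy chain genes summed (Myh1, Myh2, Myh3, Myh4, Myh7 and Myh8), neither gene separated the groups. Their sum was 60458, 77101 and 52924 CPM in control against 56949, 41705 and 52858 CPM in Myf5Cre-Pcyt2. Smyd1 had 8.35, 8.02 and 10.8 counts per 1000 myosin heavy chain counts in control compared with 7.32, 8.70 and 7.34 in Myf5Cre-Pcyt2. Unc45b had 3.54, 3.29 and 3.74 against 3.60, 4.53 and 3.66 on that scale. Both sets of ratios overlapped between the groups.

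Hsp90aa1 (ENSMUSG00000021270; chromosome 12, 110690605 to 110702728, minus strand), the stress-inducible HSP90 that partners UNC45B, had the lowest level per kilobase of the 10. It had 16.8, 15.4 and 19.1 CPM in control against 22.6, 19.5 and 18.7 CPM in Myf5Cre-Pcyt2. Control 3 exceeded Myf5Cre-Pcyt2 3, so the groups overlapped. Its log2 fold change was 0.24 (SE 0.11, 95% interval -0.01 to 0.49, edgeR adjusted p = 0.154), and it was 0.44 when libraries were scaled by size alone (adjusted p = 0.0350). The counts of this gene are uncertain: 47.5% of its 50-base words occur in other genes, mainly 3 processed pseudogenes that were themselves credited with 12, 3 and 0 counts. Its constitutive paralog Hsp90ab1, looked at after its values were seen, stood at 1132 ± 41.3 and 1151 ± 32.3 CPM (log2 fold change 0.02, SE 0.10, edgeR adjusted p = 0.896). There were 0.0150, 0.0131 and 0.0174 Hsp90aa1 counts per Hsp90ab1 count in control compared with 0.0193, 0.0175 and 0.0160 in Myf5Cre-Pcyt2, which overlap (exact permutation p = 0.2, adjusted 0.233).

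Hspb8 and Bag3 encode the core of the complex that hands damaged Z-disc proteins to autophagy. Hspb8 (ENSMUSG00000041548; chromosome 5, 116408491 to 116422864, minus strand) fell. It had 324, 399 and 361 CPM in control against 284, 274 and 258 CPM in Myf5Cre-Pcyt2. All 3 Myf5Cre-Pcyt2 libraries were below the lowest control, with control 2 the highest. The log2 fold change was -0.41 (SE 0.10, 95% interval -0.64 to -0.18, edgeR adjusted p = 0.0212).

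The Hspb8 call was the least firm of the 4, passing in 8 of 13 alternatives with the fold change below 0 in all 13. It was lost with library size alone (adjusted p = 0.135), with the replicate number as a block (0.0687), and without control 2 (0.0647), Myf5Cre-Pcyt2 2 (0.0735) or Myf5Cre-Pcyt2 3 (0.0961).

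Bag3 (ENSMUSG00000030847; chromosome 7, 128523616 to 128546981, plus strand), the co-chaperone that recruits HSPB8, did not pass. It had 136, 165 and 146 CPM in control compared with 138, 147 and 126 CPM in Myf5Cre-Pcyt2. The groups overlapped (log2 fold change -0.12, SE 0.10, 95% interval -0.34 to 0.10, edgeR adjusted p = 0.427). Hspb8 counts per Bag3 count were 2.39, 2.42 and 2.47 in control against 2.06, 1.87 and 2.05 in Myf5Cre-Pcyt2. The 3 control ratios lay close together and above all 3 Myf5Cre-Pcyt2 ratios (exact permutation p = 0.1, adjusted 0.14). This separation is tied to the Hspb8 call in the same libraries.

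Hspb6 (ENSMUSG00000036854; chromosome 7, 30552178 to 30555443, plus strand), also known as HSP20 and a substrate of cyclic-nucleotide kinases in muscle, had the largest decrease of the 10. It had 293, 451 and 339 CPM in control compared with 235, 227 and 232 CPM in Myf5Cre-Pcyt2. The controls were widely spread and the Myf5Cre-Pcyt2 libraries nearly level, all below the lowest control. The means were 361 ± 81.6 and 231 ± 4.27 CPM (SD, n = 3 per group), a log2 fold change of -0.64 (SE 0.14, edgeR adjusted p = 0.0134) or 0.640-fold (95% interval 0.515 to 0.795). The call held in 12 of 13 alternatives and missed the threshold without Myf5Cre-Pcyt2 replicate 2 (-0.63, adjusted p = 0.0610). Without control 2 the Hspb6 log2 fold change was -0.45, beside -0.47 for Smyd1. The place of Hspb6 as the largest decrease thus rested on control 2. Exons of Hspb6 share 122 bases with Proser3 on the other strand, a gene with 416 counts over all libraries.

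Hspb2 (ENSMUSG00000038086; chromosome 9, 50751078 to 50752354, minus strand), which binds the myotonic dystrophy kinase DMPK, fell least of the 4. It had 67.4, 72.8 and 73.6 CPM in control against 56.6, 54.8 and 52.9 CPM in Myf5Cre-Pcyt2. Replicates were tight in both groups and did not overlap. The log2 fold change was -0.38 (SE 0.08, 95% interval -0.56 to -0.20, edgeR adjusted p = 0.0110). The call was lost with library size alone (adjusted p = 0.201) and without Myf5Cre-Pcyt2 2 (0.0503) or 3 (0.0554).

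Cryab (ENSMUSG00000032060; chromosome 9, 50751325 to 50756636, plus strand) encodes alpha B-crystallin, the desmin chaperone, and lies head to head with Hspb2. It had 316, 418 and 476 CPM in control compared with 324, 346 and 314 CPM in Myf5Cre-Pcyt2. Control 1 sat among the Myf5Cre-Pcyt2 libraries, while control 2 and 3 were above all of them. Its log2 fold change was -0.30 (SE 0.14, 95% interval -0.60 to 0.01, edgeR adjusted p = 0.154), and without control 1 it was -0.44 with an adjusted p of 0.0216.

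In GENCODE the bounds of Cryab and Hspb2 overlap by 1030 bases on opposite strands, and 252 exonic bases are shared, 30.2% of those of Hspb2. The sources used here do not give the strand setting of the counting, so reads from the shared exons cannot be told apart. There were 4.68, 5.74 and 6.46 Cryab counts per Hspb2 count in control against 5.73, 6.30 and 5.95 in Myf5Cre-Pcyt2. These ratios overlapped, with control 1 the lowest (exact permutation p = 0.7, adjusted 0.7).

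Hspb7 (ENSMUSG00000006221; chromosome 4, 141420779 to 141425311, plus strand), the striated-muscle small heat shock protein that binds filamin C, had 240, 341 and 363 CPM in control compared with 315, 365 and 375 CPM in Myf5Cre-Pcyt2. Control 1 was the lowest library and the rest of the controls lay within the Myf5Cre-Pcyt2 range. The log2 fold change was 0.16 (SE 0.15, 95% interval -0.17 to 0.49, edgeR adjusted p = 0.476), and without control 1 it was -0.0003.

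Hspb1 (ENSMUSG00000004951; chromosome 5, 135887919 to 135889563, plus strand), the actin-binding HSP25, had 18.9, 33.6 and 32.3 CPM in control against 28.5, 33.7 and 29.5 CPM in Myf5Cre-Pcyt2. Control 1 again stood lowest, and the groups overlapped. Its log2 fold change was 0.12 (SE 0.18, 95% interval -0.28 to 0.51, edgeR adjusted p = 0.684), and without control 1 it was -0.11. Sequence copies limit this gene too: 50.1% of its 50-base words occur in other genes, and the pseudogene Hsp25-ps1 carried 56 counts over the 6 libraries. The sources used here do not say how reads mapping to several places were counted.

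**Figure D2:**
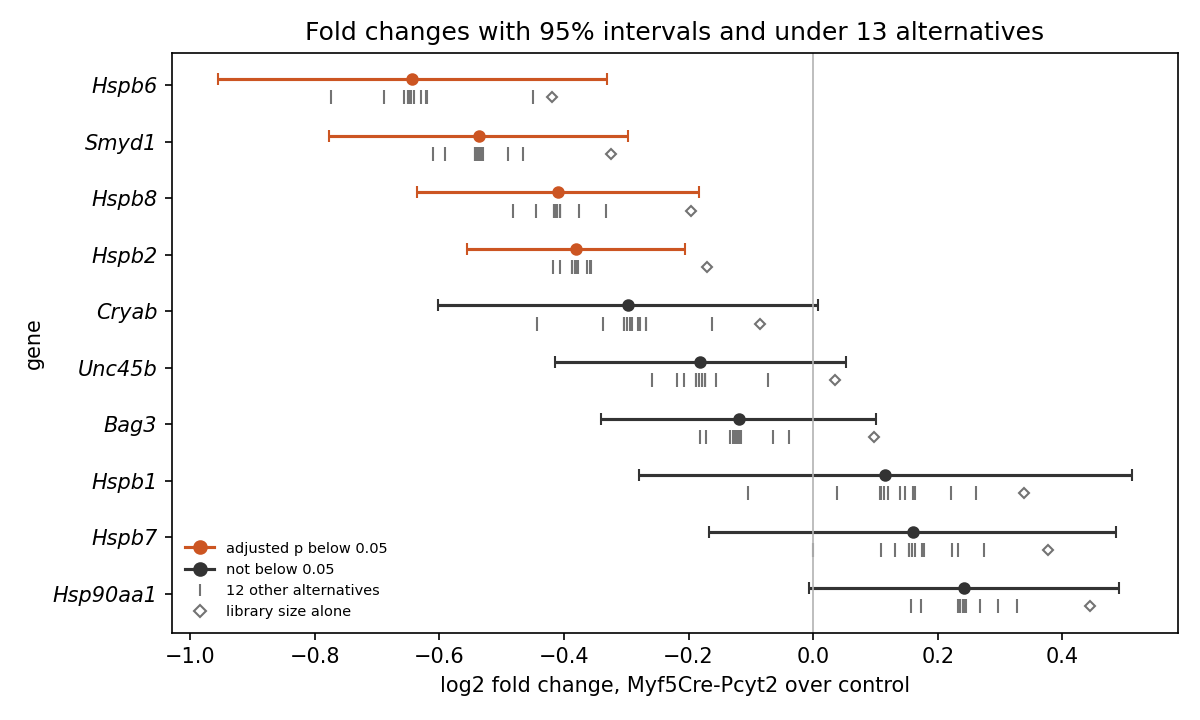
Log2 fold change (Myf5Cre-Pcyt2 over control) of each gene with its 95% interval (circle and bar; orange where the adjusted p was below 0.05) and, underneath, its value in 13 alternative analyses (ticks; the open diamond is scaling by library size alone). The 4 orange genes stay below 0 in all 13 alternatives, while the diamonds of all 10 genes lie to the right of the circles.

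Control 1 was the lowest control library for 8 of the 10 genes, all but Unc45b and Hsp90aa1, and stood furthest down for Hspb1, Hspb7, Cryab and Hspb6. On the log2 scale control 1 lay 0.33 below its group mean for Cryab, 0.53 below for Hspb1, 0.37 below for Hspb7 and 0.28 below for Hspb6. The same library had the highest summed level of 5 adipocyte markers, 334 CPM against 34.2 and 98.8 CPM in control 2 and 3 and 70.8 to 105 CPM in Myf5Cre-Pcyt2. The part of adipocyte RNA in these chaperone levels was not tested.

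The members were therefore also compared with each other within a library. Hspb6 counts per Hspb7 count were 1.22, 1.32 and 0.934 in control compared with 0.747, 0.620 and 0.619 in Myf5Cre-Pcyt2. Hspb8 counts per Hspb7 count were 1.35, 1.17 and 0.994 against 0.904, 0.750 and 0.689. Both ratios were lower in every Myf5Cre-Pcyt2 library than in any control library, control 1 included (exact permutation p = 0.1 for each, adjusted 0.14). Such a ratio compares 2 transcripts and does not say which of them changed. Hspb6 and Hspb8 were already called lower in the same libraries, so these separations are not separate support.

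**Figure D3:**
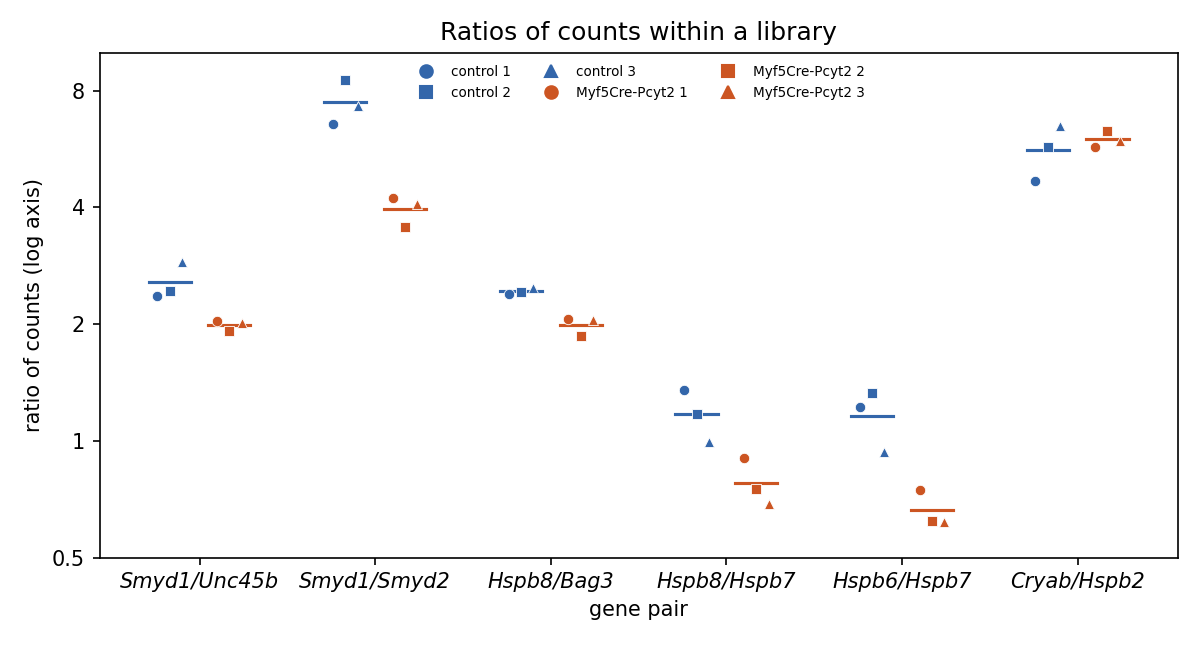
Ratios of raw counts of gene pairs within each library (log axis), for 3 control (blue) and 3 Myf5Cre-Pcyt2 (orange) libraries, with horizontal lines at the group means. The groups separate for 5 pairs, each with a first gene already called lower, and overlap for Cryab and Hspb2, where the values run from 4.68 to 6.46 in control and 5.73 to 6.30 in Myf5Cre-Pcyt2. Of the 7 ratios computed, that of Hsp90aa1 to Hsp90ab1, which also overlapped, is not drawn.

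As a pool, the 6 small heat shock genes summed to 1260, 1715 and 1646 CPM in control against 1243, 1299 and 1263 CPM in Myf5Cre-Pcyt2. Control 1 fell within the Myf5Cre-Pcyt2 range. The share of each gene in the pool was compared as well. Hspb7 made up 19.1, 19.9 and 22.1% of these counts in control compared with 25.3, 28.1 and 29.7% in Myf5Cre-Pcyt2. Hspb6 made up 23.2, 26.3 and 20.6% in control against 18.9, 17.4 and 18.4% in Myf5Cre-Pcyt2. The groups did not overlap for either share, nor for Hspb1, at 1.81% ± 0.264 in control compared with 2.41% ± 0.162 in Myf5Cre-Pcyt2 (SD, n = 3 per group). Exact permutation gave p = 0.1 for each of these 3 shares, the smallest that 3 against 3 libraries allow. The shares of Cryab, Hspb2 and Hspb8 overlapped (exact permutation p = 0.9, 0.5 and 0.2). The 6 shares sum to the whole and are tied to each other, and Hspb7 and Hspb1 did not pass the test in CPM. A gene with a steady level gains share when large members of the pool fall. The part of all tested genes that would separate when divided by this pool was not computed.

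Per kilobase of exon, the scale on which levels of different genes can be set side by side, Cryab led in control muscle with 273 ± 54.8 CPM per kb (SD, n = 3). Hspb8 (185 ± 19.1), Hspb6 (157 ± 35.5), Smyd1 (124 ± 12.5), Hspb7 (114 ± 23.7) and Hspb2 (85.5 ± 4.03) followed, and each of these overlapped the next in that order. Bag3 (58.1 ± 5.76) and Unc45b (49.4 ± 6.42) overlapped each other and lay below Hspb2. Hspb1 (27.4 ± 7.87) and Hsp90aa1 (4.35 ± 0.480) were lowest and did not overlap their neighbours. Their low places are uncertain, since 50.1% and 47.5% of their 50-base words occur in other genes. Reads lost to those copies would lower both levels, which was not tested. The level of Hspb2 is uncertain as well, because it shares exonic bases with Cryab.

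In Myf5Cre-Pcyt2 muscle Cryab again led, with 222 ± 10.8 CPM per kb, followed by Hspb8 with 140 ± 6.66. Hspb7 came next with 127 ± 11.8, its range overlapping that of Hspb8. It now stood above Hspb6 (101 ± 1.86) and Smyd1 (85.6 ± 5.94), which it did not overlap. Hspb2, Bag3, Unc45b, Hspb1 and Hsp90aa1 kept the lower places in the same order as in control.

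Over the 6 libraries, the members that fell tracked one another in log2 CPM. Smyd1 was closest to Hspb8 (Pearson r = 0.974), Hspb2 to Smyd1 (0.970) and Hspb6 to Hspb8 (0.972). These values include the group difference. After group means were subtracted, Smyd1 with Hspb8 had r = 0.843, Hspb2 with Hspb8 0.846 and Hspb6 with Hspb8 0.892. On that scale the fallen pair Hspb2 and Hspb6 had 0.564, while Bag3, which did not pass, had 0.888 with Hspb8. Close tracking within groups was thus not particular to the members that fell. Hspb1 and Hspb7 formed another close pair, with r = 0.924 over the 6 libraries and 0.925 within groups, and Cryab was closest to Hspb1 within groups (0.925). Over the 6 libraries Unc45b was closest to Hspb6 (0.842) and Bag3 to Hspb8 (0.776), and Hsp90aa1 had no member above r = 0.219. Within groups Hsp90aa1 was closest to Hspb2 (0.497). All these correlations rest on the same 6 libraries and their scaling, and control 1 was the lowest control for Hspb1, Hspb7 and Cryab.

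The decreases were read beside the markers of the fibres that hold these chaperones. Of 7 skeletal muscle fibre markers 4 fell (Mb, Ckm, Mylpf and Tnnt3), and the list of 7 summed to 102360 to 132241 CPM in control and 66137 to 77645 CPM in Myf5Cre-Pcyt2. Acta1, Ryr1 and Cacna1s did not pass, at log2 fold changes of -0.60, -0.28 and -0.17. Smyd1 had 4.93, 4.67 and 5.58 counts per 1000 counts of these 7 markers in control against 5.37, 5.49 and 5.60 in Myf5Cre-Pcyt2. Hspb6 had 2.86, 3.41 and 3.32 against 3.03, 3.43 and 3.35 on that scale. The groups therefore overlapped for both genes, which had the largest falls in CPM. Acta1, Ckm, Mylpf and Tnnt3 made up most of the marker sum, with control means of 49714, 20553, 19360 and 18257 CPM. Ryr1, Cacna1s and Mb had control means of 2913, 1237 and 287 CPM, and ratios to them alone were not computed.

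On that scale 7 of the 10 were higher in every Myf5Cre-Pcyt2 library than in any control, 3 overlapped (Smyd1, Cryab and Hspb6) and 0 were lower. Among all tested genes 74.6% were separated upward and 0.958% downward on the same scale, so the members' count was near the background. Hspb7 had 2.34 to 3.55 counts per 1000 marker counts in control and 4.05 to 5.52 in Myf5Cre-Pcyt2, and Hspb8 had 3.02 to 3.53 and 3.66 to 4.14. The part of the fibre markers in the chaperone decreases was not tested beyond these ratios.

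**Figure D4:**
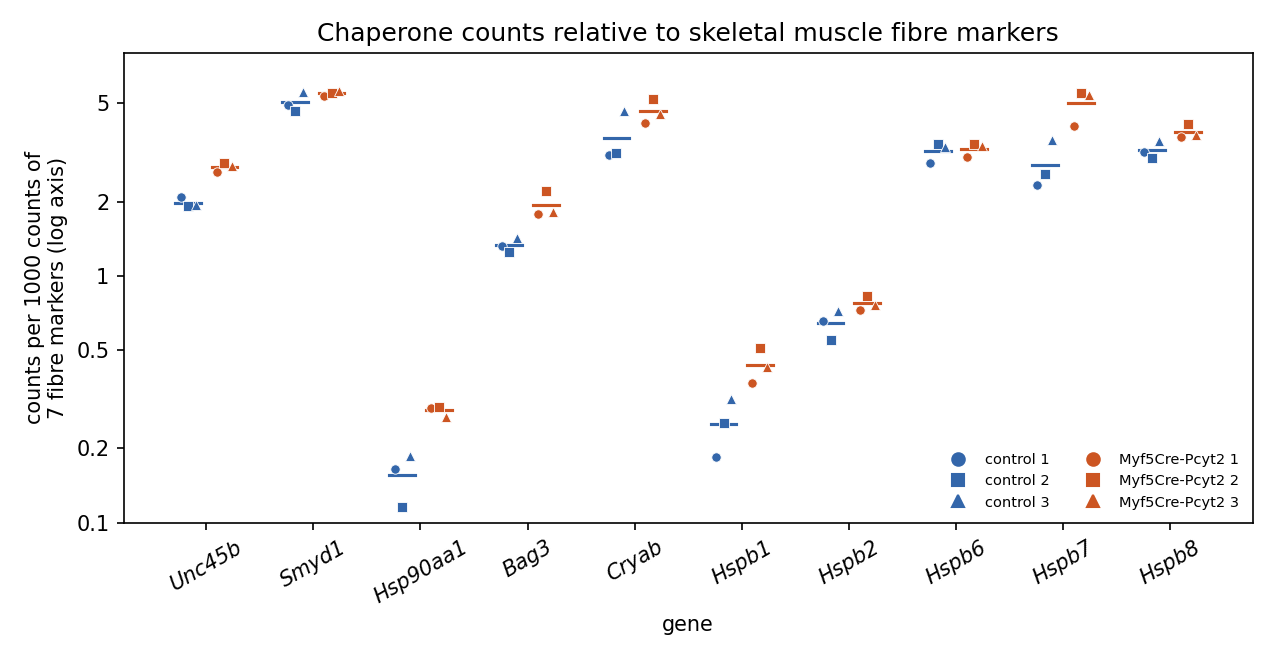
Counts of each chaperone gene per 1000 counts of 7 skeletal muscle fibre markers (log axis) in the 3 control (blue) and 3 Myf5Cre-Pcyt2 (orange) libraries, with lines at the group means. Smyd1, Cryab and Hspb6 overlap between groups, and the other 7 genes lie higher in all 3 Myf5Cre-Pcyt2 libraries.

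Small heat shock proteins are also made by smooth and cardiac muscle. Among 7 smooth muscle and pericyte markers only Acta2 passed the test (log2 fold change -0.81, edgeR adjusted p = 0.0117), and the list summed to 1716 to 1987 CPM in control and 1341 to 1503 CPM in Myf5Cre-Pcyt2. Most of that gap came from Acta2, with a mean of 823 CPM in control libraries against 471 CPM, and the list's median log2 fold change was -0.02. Of the cardiac list Nkx2-5 had 0 counts, Myl7 1 and Nppa 4 over all 6 libraries. The other 4 cardiac list genes were tested, and all 4 were higher at an unadjusted p under 0.05. Only Myl4, also an embryonic skeletal muscle gene, passed after adjustment and rose (1.34, edgeR adjusted p = 0.0167). Sln, which skeletal muscle also makes, had a log2 fold change of 1.64, Ryr2 0.68 and Tnni3 0.61 (edgeR adjusted p = 0.0763, 0.136 and 0.112), and Ryr2 and Tnni3 were near 1 CPM. The cardiac list summed to 37.3, 26.2 and 123 CPM in control 1 to 3 and 144 to 202 CPM in Myf5Cre-Pcyt2, without overlap. The 7 slow fibre markers summed to 758, 709 and 1537 CPM in control 1 to 3 and 1237 to 1678 CPM in Myf5Cre-Pcyt2. By edgeR 0 of the 7 passed, with 4 at an unadjusted p under 0.05, all higher. Control 3 was the highest control for both the cardiac and the slow fibre list. The satellite cell markers Vcam1, Pax7 and Chodl rose, as did Sox10 of the Schwann list and Pdgfra of the fibroblast list, and the endothelial, macrophage and adipocyte lists held 0 calls, with 0, 3 and 1 at an unadjusted p under 0.05. Of 6 immediate early genes, which respond to handling and stress, only Fos passed (-1.36, edgeR adjusted p = 0.0242). The part of these cells and genes in the chaperone levels was not tested.

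The wider chaperone network was followed through 6 lists of 82 genes, of which 77 were tested. Of these 4 rose and 5 fell, 11.7% in all, beside 18.6% of all tested genes, with a median log2 fold change of -0.08. The other 68 did not pass, and 50 of the 77 had a log2 fold change below 0, beside 7389 of all 14715 tested genes. The lists hold autophagy clients and heat shock factors as well as chaperones.

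The list of HSP90 and its co-chaperones, which also includes Smyd2 and Naca, held 5 of the 9 calls among 19 tested genes. That was 26.3% of its tested genes, beside 18.6% of all tested genes. Fkbp5, a glucocorticoid-responsive immunophilin, stood at 7.53 ± 0.653 CPM in control and rose to 11.8 ± 1.26 CPM (0.65 on the log2 scale, SE 0.13, edgeR adjusted p = 0.00922), a call lost without Myf5Cre-Pcyt2 2 (0.0520). Smyd2 rose as given above. The mitochondrial HSP90 Trap1 fell from 117 ± 8.76 to 94.7 ± 2.36 CPM (-0.31, SE 0.09, adjusted p = 0.0307). Naca, whose muscle isoform binds SMYD1, rose (0.53, SE 0.16, adjusted p = 0.0439), and Ahsa1, the activator of the HSP90 ATPase, fell (-0.36, SE 0.11, adjusted p = 0.0385). Naca and Ahsa1 were named after their values were seen. Naca kept its call without control 1 and lost it without any other library (adjusted p 0.0656 to 0.134), and its isoforms are not separated in a count per gene. Trap1 and Ahsa1 passed in 7 and 6 of the 13 alternatives. Both lost their calls with library size alone (adjusted p = 0.419 and 0.277), with the replicate block (0.0916 and 0.0854) and without control 2 (0.0990 and 0.132) or any single Myf5Cre-Pcyt2 library (0.0550 to 0.113 and 0.0580 to 0.142), and Ahsa1 also without control 3 (0.0719).

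Of 24 tested HSP70, HSP40, HSP110 and BAG genes, only Dnajb5, a J-domain partner of HSP70, passed the test, and at an unadjusted p under 0.05 there were 1 higher and 4 lower. Without control 1 the list had 3 genes called lower, and with library size alone 3 higher and 0 lower. Dnajb5 had 174, 199 and 164 CPM in control compared with 137, 136 and 119 CPM in Myf5Cre-Pcyt2, without overlap (log2 fold change -0.45, SE 0.10, edgeR adjusted p = 0.0144). The call was lost with library size alone (adjusted p = 0.0875) and without Myf5Cre-Pcyt2 3 (0.0680). Hspa4l did not pass (-0.31, adjusted p = 0.0569). The heat-inducible pair Hspa1a and Hspa1b, chosen after their values were seen, stood at 2.12 and 1.51 CPM in control against 2.51 and 2.07 CPM in Myf5Cre-Pcyt2, and neither passed (adjusted p = 0.490 and 0.174). They are near-identical copies, so their counts are uncertain.

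The heat shock factor list had 4 tested genes, Hsf1, Hsf2, Hsf4 and the factor-binding protein gene Hsbp1. By edgeR 0 of the 4 passed, with Hsbp1 (-0.22, adjusted p = 0.117) nearest the threshold, 1 at an unadjusted p under 0.05 and 0 calls by DESeq2 and limma-voom. Hsf1, the master factor of the heat shock response, was named after its values were seen and had -0.19 (adjusted p = 0.147). By edgeR 0 of 16 chaperonin and prefoldin genes passed, with 2 at an unadjusted p under 0.05 and 0 calls by DESeq2 and limma-voom; Vbp1 was nearest (-0.27, adjusted p = 0.138). The remaining small heat shock genes yielded 2 tested genes of 5. Hspb3, the partner of HSPB2, did not pass (-0.31, edgeR adjusted p = 0.0558), with 1 gene of the list at an unadjusted p under 0.05, and it passed by DESeq2 (adjusted p = 0.0433) but not by limma-voom.

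Among 12 genes listed as partners and clients of chaperone-assisted autophagy, Flnc rose and Tpm1 and Ldb3 fell. That was 25% of the list, beside 18.6% of all tested genes. The list was set by choice, and a place on it does not show that a gene such as Tpm1 is a client. Flnc encodes filamin C, the client that BAG3 and HSPB8 clear and that HSPB7 binds. It had 759, 793 and 724 CPM in control compared with 1120, 1362 and 1242 CPM in Myf5Cre-Pcyt2. The groups were far apart relative to their spread (log2 fold change 0.71, SE 0.11, edgeR adjusted p = 0.00417), and the call held in all 13 alternatives. Tpm1, a tropomyosin, had the largest decrease of these (-0.82, SE 0.20, adjusted p = 0.0197), followed by Ldb3, a Z-disc protein (-0.52, SE 0.15, adjusted p = 0.0362). The Tpm1 and Ldb3 calls were lost without Myf5Cre-Pcyt2 2 (adjusted p = 0.106 and 0.122) or 3 (0.0991 and 0.133) and with the replicate block (0.114 and 0.120). The Ldb3 call was also lost with library size alone (0.0656) and without control 2 (0.0913), control 3 (0.0530) or Myf5Cre-Pcyt2 1 (0.0630).

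**Figure D5:**
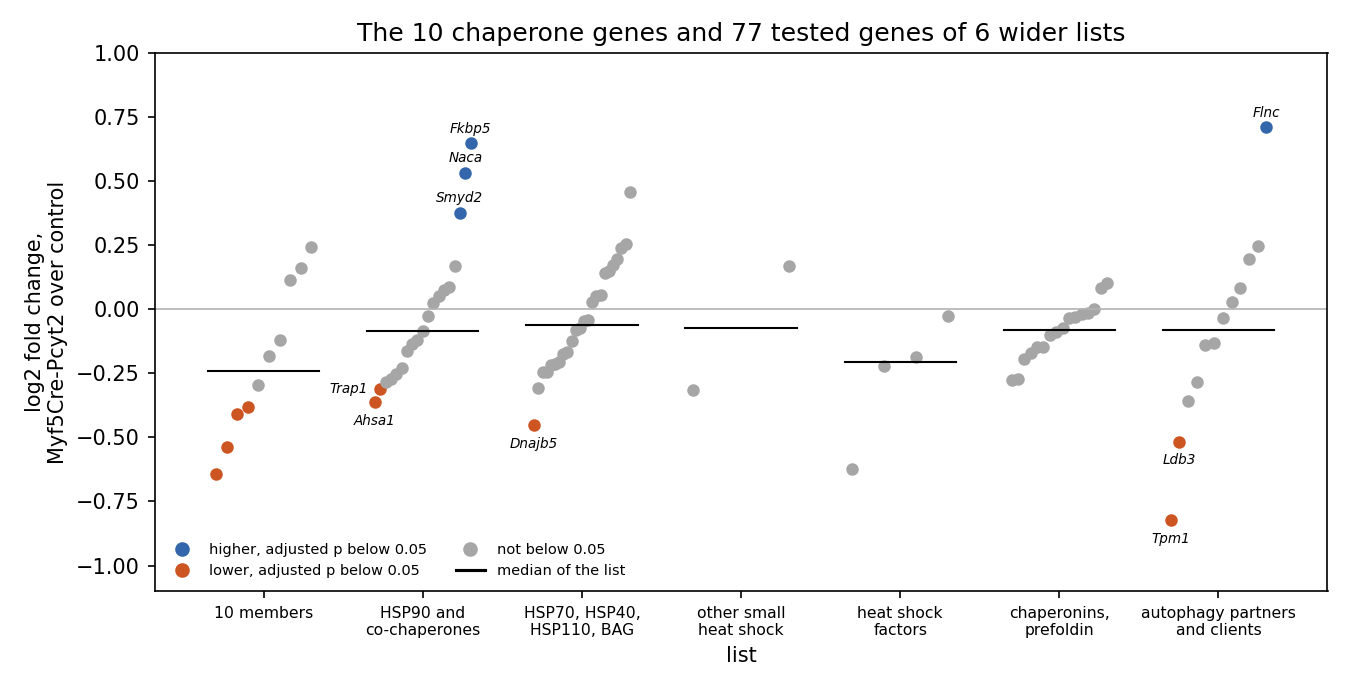
Log2 fold change (Myf5Cre-Pcyt2 over control) of the 10 muscle chaperones and of 77 tested genes in 6 wider lists, with genes in each list ordered by value and a line at its median. Called genes are coloured and, outside the 10, named; Flnc is the highest point at 0.71 and Tpm1 the lowest at -0.82.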

How the data were processed

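Quadriceps RNA of 6 pups was sequenced. The authors deposited raw counts per Ensembl gene. The submitters' processing notes name GRCm38, featureCounts (Subread 1.6.2), Bowtie2 2.3.4.1 and Trim Galore 0.5.0, without roles. The sources used here do not give strand setting, annotation release or handling of multiply mapped reads. The table was used whole. Groups came from the sample titles. Symbols, positions and exonic lengths came from GENCODE M21 (54495 of 54532 genes matched), and promoters from RefSeq.

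Counts were filtered with filterByExpr, scaled with TMM and compared with edgeR 4.0.16 (R 4.3.3) by the two-sided quasi-likelihood test, with Benjamini-Hochberg adjustment over 14715 genes. Limma 3.58.1, DESeq2 1.42.0, Python 3.11.15 and pandas 2.3.3 were also used. Log2 CPM for correlations had a prior count of 2. Shared sequence was counted in words of 50 bases over all transcripts. Ratios of gene pairs were compared by exact permutation of log2 ratios. Pool shares were compared by exact permutation of the untransformed percentages, without adjustment for their number. The biological coefficient of variation was 11.6%. On simulated counts of 14542 genes, 56% of genes raised 1.5-fold, 60% of those lowered 1.5-fold and 98% of those raised 2-fold were recovered. Of 168 calls, 11 were false. The simulation gave every gene the same dispersion and changed only 50 genes per fold, unlike the data, so these shares need not hold here.

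The members and lists were chosen with earlier results of these data known. All 10 members were named, and of each wider list up to 3 called genes with the smallest p, plus the nearest uncalled gene where fewer than 3 passed; of each marker list, members called or at 0. The rule also selected 1 marker gene not reported here. Alternatives were limma-voom, DESeq2, its size factors in edgeR, scaling by library size alone, a filter of 1 CPM in 3 libraries or none, a replicate block, and each library left out in turn. Intervals are 95% and cover the spread between these libraries.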

Additional observations from a re-analysis of the deposited data

How the results depend on the processing

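Scaling and single libraries moved the most calls. Library size alone raised the median log2 fold change of all tested genes by 0.21 and left 2 chaperone members lower and 1 higher (Hsp90aa1), turned Unc45b and Bag3 to 0.03 and 0.10, and gave 1 wider chaperone gene lower and 9 higher. Leaving out a library gave 846 to 2785 changed genes, 0 to 5 members lower, 0 to 11 wider chaperone genes lower and 1 to 4 higher; the 0 members came without Myf5Cre-Pcyt2 2, and 2 without Myf5Cre-Pcyt2 3. Of the wider genes, 9 were lower with DESeq2 and 8 with no filter on low counts. Same-numbered libraries did not deviate together (r = -0.11, -0.17 and 0.02), so the numbers were not taken as pairs; with the replicate block 1731 genes changed, 3 members were lower (Hspb8 lost) and 1 wider gene was lower. The cause of these shifts was not tested. The 4 members that fell kept their direction in all 13 alternatives. At these depths members had 265 or more counts per library, so the number of libraries, more than counting error, limits the precision.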
